A study of Mus musculus with 8 samples.

Results

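Immediate early genes are transcribed within minutes of a stimulus, before any new protein has to be made. A set of 37 of them was followed here in the hippocampus of 8 aged mice, 4 whose memory the labels call impaired and 4 whose memory they call intact. The 37 were taken by gene symbol from a list of activity-induced immediate early genes, each with its brightest probe set. All 37 had a probe set among the 19505 genes named on the array, and 35 stood above the floor on dim genes and were tested with 14628 genes in all. Maff and Ier2 lay below that floor and are given as values with no test. All mice were of the line B6.Cg-Tg(APPswe)E1-2Dbo/J, whose transgene name marks a mutant form of the amyloid precursor, and all were 18 to 20 months old. Every mouse had swum the Morris water maze, a test of spatial memory, before the hippocampus was dissected. Both groups therefore share the transgene, the age and the maze, and the comparison holds neither transgene-free nor untrained mice. The measure by which mice were called impaired, and the time between the last swim and the dissection, are stated in none of the sources used here. The labels call the samples of a group biological replicates, with 1 array each, and each is taken here as 1 mouse.

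In neurons these genes answer to calcium entry and to the kinase cascades that follow synaptic activity. The cascades phosphorylate factors already bound at the promoters, among them CREB at the cAMP response element and SRF with its partners at the CArG box. The products fall into transcription factors that drive a later wave of genes, proteins that act at the synapse directly, and phosphatases and kinases that limit the same cascades. In the hippocampus, Fos, Arc and Egr1 RNA is widely used as a mark of recently active neurons, and it decays within hours of the stimulus. Several members also answer to stress, growth factors or injury in cells that are not neurons.

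The promoters are shown because CREB and SRF sites are the features by which this class is known. RefSeq (assembly GRCm38.p6) gave the 250 bases before a transcription start for 28 of the 37 members, in 35 windows, since some genes have several starts. The other 9, for which no window was at hand, were Arc, Dusp4, Egr1, Egr3, Fosl1, Ier2, Nptx2, Sik1 and Trib1. TGACG, the core of the cAMP response element, was searched on both strands, so that it also appears as CGTCA. Capitals mark it in the 5 windows below, those of Npas4, Nr4a1, Fos, Dusp1 and Plk3, whose values the results turn on. Each is written 5′ to 3′ on the strand of its gene and ends at the base before the start.
Npas4, chr19:4989972-4990221, minus strand: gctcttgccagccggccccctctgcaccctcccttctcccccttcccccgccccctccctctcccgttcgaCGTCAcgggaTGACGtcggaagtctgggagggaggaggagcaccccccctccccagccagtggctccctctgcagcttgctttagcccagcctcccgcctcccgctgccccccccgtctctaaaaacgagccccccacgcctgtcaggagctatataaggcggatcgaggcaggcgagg
Nr4a1, chr15:101266596-101266845, plus strand: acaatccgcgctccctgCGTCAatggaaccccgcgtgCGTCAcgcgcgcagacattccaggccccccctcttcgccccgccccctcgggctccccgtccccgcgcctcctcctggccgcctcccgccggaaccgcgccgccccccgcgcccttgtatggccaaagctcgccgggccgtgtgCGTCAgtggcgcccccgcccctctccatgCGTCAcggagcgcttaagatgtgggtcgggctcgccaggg
Fos, chr12:85473640-85473889, plus strand: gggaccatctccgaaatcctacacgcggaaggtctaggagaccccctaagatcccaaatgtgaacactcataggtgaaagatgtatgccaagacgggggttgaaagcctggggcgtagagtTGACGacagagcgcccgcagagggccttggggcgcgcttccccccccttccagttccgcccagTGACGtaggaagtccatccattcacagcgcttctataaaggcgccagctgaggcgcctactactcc
Dusp1, chr17:26508473-26508722, minus strand: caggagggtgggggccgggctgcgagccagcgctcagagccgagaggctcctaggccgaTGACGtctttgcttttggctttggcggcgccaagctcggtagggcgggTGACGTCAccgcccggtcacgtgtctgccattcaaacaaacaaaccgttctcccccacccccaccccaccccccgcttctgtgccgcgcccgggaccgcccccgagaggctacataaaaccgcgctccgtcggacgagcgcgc
Plk3, chr4:117133964-117134213, minus strand: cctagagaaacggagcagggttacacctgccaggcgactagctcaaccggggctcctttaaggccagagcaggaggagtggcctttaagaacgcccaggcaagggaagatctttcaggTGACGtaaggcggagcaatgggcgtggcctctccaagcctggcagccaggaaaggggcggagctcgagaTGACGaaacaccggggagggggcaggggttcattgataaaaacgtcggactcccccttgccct
In the Npas4 window the matches begin 179 and 169 bases before the start, on opposite strands. Nr4a1 had 4 matches, all on the reverse strand, at 233, 213, 69 and 40 bases before the start. The Fos matches lay at 129 and 66 bases, and those of Plk3 at 132 and 63 bases before the start. One place in Dusp1 holds the full palindrome TGACGTCA, which counts on both strands at 143 and 140 bases, and a further TGACG lies at 191 bases.

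Of the members' 35 windows, 22 (62.9%) held TGACG on either strand, against 17.8% of all 32851 windows of that length. The palindrome TGACGTCA, each match of which also counts as TGACG, was in 4 member windows (11.4%), those of Btg2, Dusp1, Maff and Plk2, against 1.55% of all windows. A CArG box was in 5 windows (14.3%), all of Dusp5 and Egr2, against 1.47% of all windows. Counted by gene, that was 2 of 28 (7.14%), against 1.62% of all genes with a window. TGANTCA, the form bound by AP-1, was in 0 of the 35, against 6.75% of all windows. Base composition was not matched in these shares, and several windows of 1 gene overlap. A match is a match of letters in this window and nothing more. Sites further upstream, or in the 9 members without a window, were not searched.

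The 8 arrays were alike in level, with medians of 7.75 to 7.79 over the genes tested and correlations of 0.979 to 0.989 across genes between any 2 of them. All values are log2 values as the authors deposited them. Defining markers of excitatory neurons, Slc17a7, Neurod6, Nrgn and Camk2a, were well above the floor in every mouse, and the log2 of the list's summed level lay between 14.3 and 14.5 in impaired and between 14.3 and 14.6 in intact mice. Prox1, C1ql2 and Dsp, which mark dentate granule cells, were above the floor as well, while Tdo2 was below it. Markers of tissue at the border of the dissection differed between mice. All 12 choroid plexus markers, Ttr, Folr1, Kl and Clic6 among them, were lower in impaired mice on average, with summed levels of 11.0 to 13.6 in impaired and 11.4 to 14.1 in intact mice. Their median difference was -0.57 with all mice, -0.22 without impaired mouse 3 (10 of the 12 lower), -0.29 without intact mouse 1 and -0.93 without intact mouse 3. All 12 thalamus markers, among them Tcf7l2, Shox2, Prkcd and Ramp3, were higher in impaired mice on average, at 13.1 to 13.7 in impaired and 11.8 to 13.8 in intact mice, and the lowest thalamus level was that of intact mouse 3. Without intact mouse 3 the direction turned, with 11 of the 12 thalamus markers lower in impaired mice on average. All 6 striatum markers, with Drd1, Drd2 and Ppp1r1b, were also lower on average, with summed levels of 11.1 to 11.4 in impaired and 11.2 to 11.9 in intact mice. Without intact mouse 2, 5 of the 6 were lower, and their median difference was -0.066, against -0.23 with all mice. Markers of CA1 pyramidal neurons (Wfs1, Fibcd1, Pou3f1), interneurons (Gad1, Gad2, Slc32a1, Pvalb), endothelium (Cldn5, Pecam1, Cdh5, Flt1) and microglia (Cx3cr1, P2ry12, Tmem119, Csf1r) stood above the floor, and 0 genes of any marker list passed the test. The summed level of the CA1 markers was 11.39 to 11.43 in impaired and 10.92 to 11.62 in intact mice. Intact mouse 3 was the highest of all in that level and intact mouse 4 the lowest. In bulk tissue, fewer cells of a type and less RNA per cell cannot be told apart. Impaired mouse 1 stood apart from the other mice in the immediate early genes, as described below, and the differences of members that moved most without it are given both ways.

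No member passed the test between the groups. The smallest adjusted p of any member was 0.961 (limma, Benjamini-Hochberg over all 14628 genes), and no gene of the whole array passed either, so that 0% of genes were called. At an unadjusted limma p under 0.05, 1 of the 35 members was higher in impaired mice, against 2.17% of all genes, and 0 were lower, against 2.52% of all genes. Of the members, 0 had every impaired value above every intact value, against 1.12% of all genes, and 0 had every impaired value below, against 1.46%. The one member at that unadjusted level was Plk3. Shares this near to the background carry no result about the members.

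Most members nonetheless had the higher mean in impaired mice. This held for 25 of 35 (71.4%), against 47.1% of all genes tested, and the median difference was 0.076 on the log2 scale, against -0.0083 over all genes. With the dim members Maff and Ier2 included, 27 of 37 were higher and the median difference was 0.088. Single differences ran between -0.18 for Atf3 and 0.43 for Npas4. A standard error was 0.13 in the median member and 0.10 in the median gene. These counts rested on 1 mouse. With impaired mouse 1 left out, 17 of 35 members were higher and 18 were lower, with a median difference of -0.0014.

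**Figure D1:**
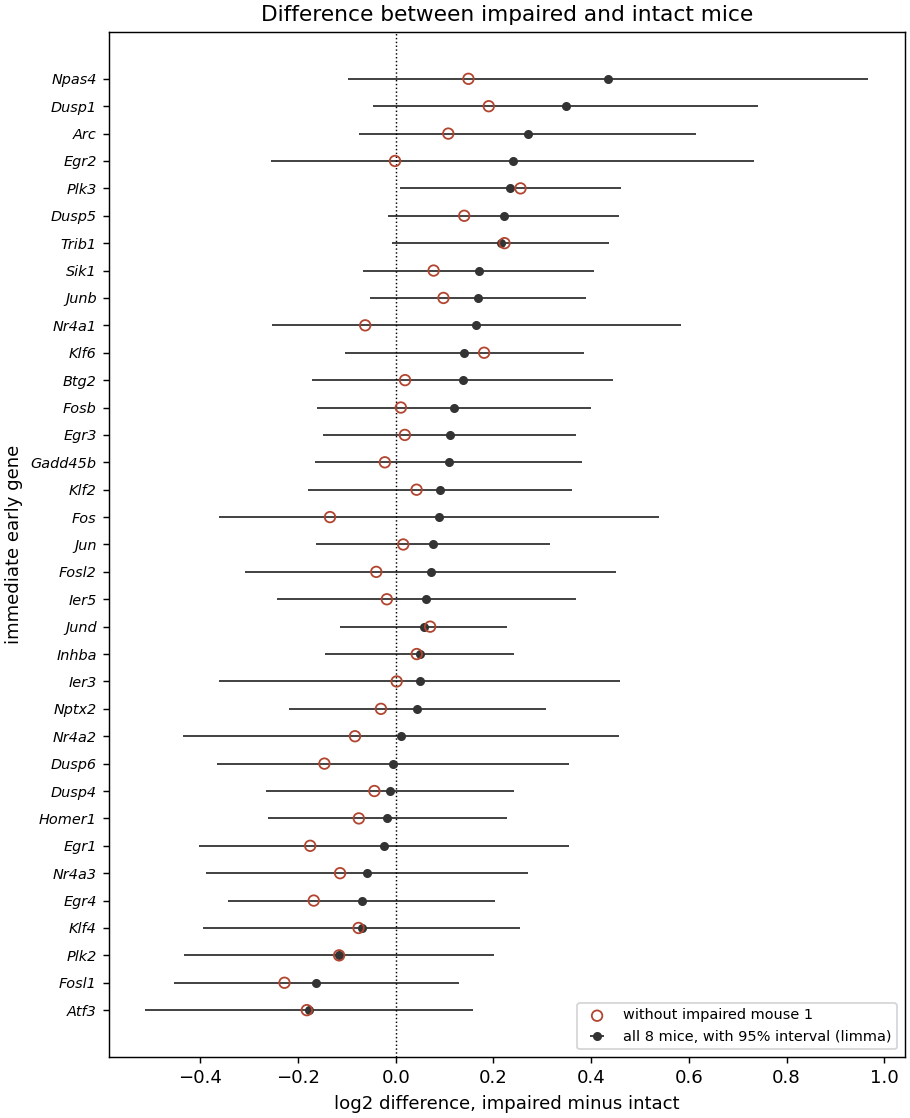
Difference of each of the 35 members tested, impaired minus intact, on the log2 scale (horizontal axis), with its 95% interval from limma (lines), and the difference without impaired mouse 1 (open circles). Nearly every interval crosses 0, that of Plk3 being the exception at 0.0085 to 0.46, and for most members the open circle lies to the left of the filled point.

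Fos, Jun and their relatives form AP-1, the dimeric factor whose activity rises after stimulation. Of the 8 tested members of this group, 6 were higher and 2 lower in impaired mice, and the median difference was 0.074. Fos, the classical mark of an activated neuron, was at 8.16, 7.30, 7.27 and 7.24 in impaired mice 1 to 4, against 7.05, 7.65, 7.41 and 7.51 in intact mice 1 to 4. Impaired mouse 1 was above all others, and the other impaired mice lay inside the range of the intact ones. The difference of Fos was 0.088 with a 95% interval of -0.36 to 0.54 (limma adjusted p = 0.99), and it was -0.13 once impaired mouse 1 was left out. Junb, an AP-1 subunit that also restrains Jun, was at 8.03, 7.73, 7.64 and 7.86 in impaired mice, against 7.65, 7.57, 7.79 and 7.57 in intact mice. Its groups overlapped, the difference was 0.17 ± 0.10 (SE, n = 4 each; limma adjusted p = 0.961), and it was 0.098 with impaired mouse 1 left out.

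The rest of the AP-1 group is given by its differences. Fosb, Fosl2 and Jun had differences of 0.12, 0.071 and 0.076, each with its highest value in impaired mouse 1, and without that mouse the differences were 0.011, -0.040 and 0.015. Jund, the subunit that is transcribed in resting cells too, had a difference of 0.057 and the narrowest range over the mice of any member, 0.23. Fosl1 and Atf3, of which Atf3 is a factor induced by cell stress, were lower in impaired mice by differences of -0.16 and -0.18. Neither had its highest value in impaired mouse 1. Maff, a small Maf factor, averaged 5.21 ± 0.18 in impaired and 5.07 ± 0.37 in intact mice (SD, n = 4 each), below the floor of 5.33.

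The Egr and Klf genes encode zinc finger factors, of which Egr1 is tied to the upkeep of long-term potentiation. In this group 4 of 7 tested members were higher and 3 lower in impaired mice, with a median difference of 0.091. Egr1 was at 11.11, 10.32, 10.31 and 10.89 in impaired mice, against 10.52, 10.69, 10.80 and 10.71 in intact mice. The impaired mice thus held both the highest and the lowest values, with an SD of 0.40 in impaired and 0.12 in intact mice. The difference of Egr1 was -0.025 with a 95% interval of -0.40 to 0.35 (limma adjusted p = 0.995), and -0.18 without impaired mouse 1. Egr2, named after its values were seen, was at 8.90, 7.79, 7.82 and 8.20 in impaired mice, against 7.69, 7.92, 7.87 and 8.26 in intact mice. Only impaired mouse 1 was above the intact range, and the difference of 0.24 ± 0.22 (SE, n = 4 each; limma adjusted p = 0.961) became -0.0014 without it.

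Egr3, which acts with Egr1 downstream of calcium signals, had 3 probe sets that disagreed on the highest mouse. The brightest of them gave 9.31 in impaired mouse 1, against at most 9.06 elsewhere, and its difference was 0.11 with that mouse and 0.019 without it. Another had its highest value, 8.41, in intact mouse 3, where impaired mouse 1 had 8.30. The last one was at 8.44, 7.93, 7.94 and 8.22 in impaired mice, against 8.07, 8.10, 8.36 and 8.14 in intact mice. Its mean was lower in impaired mice, unlike those of the others, so the direction of Egr3 rests on the choice of probe set. The platform's identifiers call those others, the brightest among them, unmapped. Egr4 had a difference of -0.070, and of -0.17 without impaired mouse 1. Klf2 and Klf4, factors that are also prominent in the endothelium of vessels, had differences of 0.091 and -0.070 (0.043 and -0.076 without impaired mouse 1), while 9 of 11 endothelial markers were lower in impaired mice on average, Cldn5 by -0.22 among them. Vwf and Ly6c1 were higher, by 0.29 and 0.055, and without impaired mouse 2 or impaired mouse 4 the count of lower markers was 7 of 11. The part of the endothelial markers in the Klf values was not tested. Klf6 had a difference of 0.14 and its highest value, 8.17, in impaired mouse 2.

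Npas4, a factor of neurons that answers to calcium entry and shapes inhibitory synapses, had the largest difference of all members. It was at 7.94, 6.76, 7.02 and 6.62 in impaired mice 1 to 4, against 6.44, 6.75, 6.58 and 6.82 in intact mice 1 to 4. Impaired mouse 1 lay far above, impaired mouse 3 a little above, and the other impaired mice within the intact range. The means were 7.08 ± 0.60 in impaired and 6.65 ± 0.17 in intact mice (SD, n = 4 each), a ratio of 1.35 with an SE of 0.24 on the log2 scale (limma adjusted p = 0.961). Without impaired mouse 1 the difference was 0.15. Npas4 and Plk3 both averaged 6.87 over all mice, below the 95th percentile of the negative control probe sets (7.92).

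The Nr4a genes encode orphan nuclear receptors that CREB drives and that take part in memory consolidation. Nr4a1, named after its values were seen, was at 9.06, 8.11, 8.16 and 8.19 in impaired mice, against 8.10, 8.40, 8.20 and 8.17 in intact mice. No impaired mouse but mouse 1 lay above the intact range, and the difference of 0.16 became -0.062 without that mouse. Both of its relatives had their highest value in intact mouse 3. Nr4a2 was at 10.78, 10.55, 10.26 and 10.41 in impaired mice, against 10.74, 10.37, 10.95 and 9.90 in intact mice, with both extremes among the intact mice and a difference of 0.011 (95% interval -0.44 to 0.46). Nr4a3 was at 10.81, 10.29, 10.57 and 10.91 in impaired mice, against 10.55, 10.68, 11.02 and 10.55 in intact mice, a difference of -0.059 (95% interval -0.39 to 0.27). Without impaired mouse 1 these differences were -0.083 and -0.11.

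**Figure D2:**
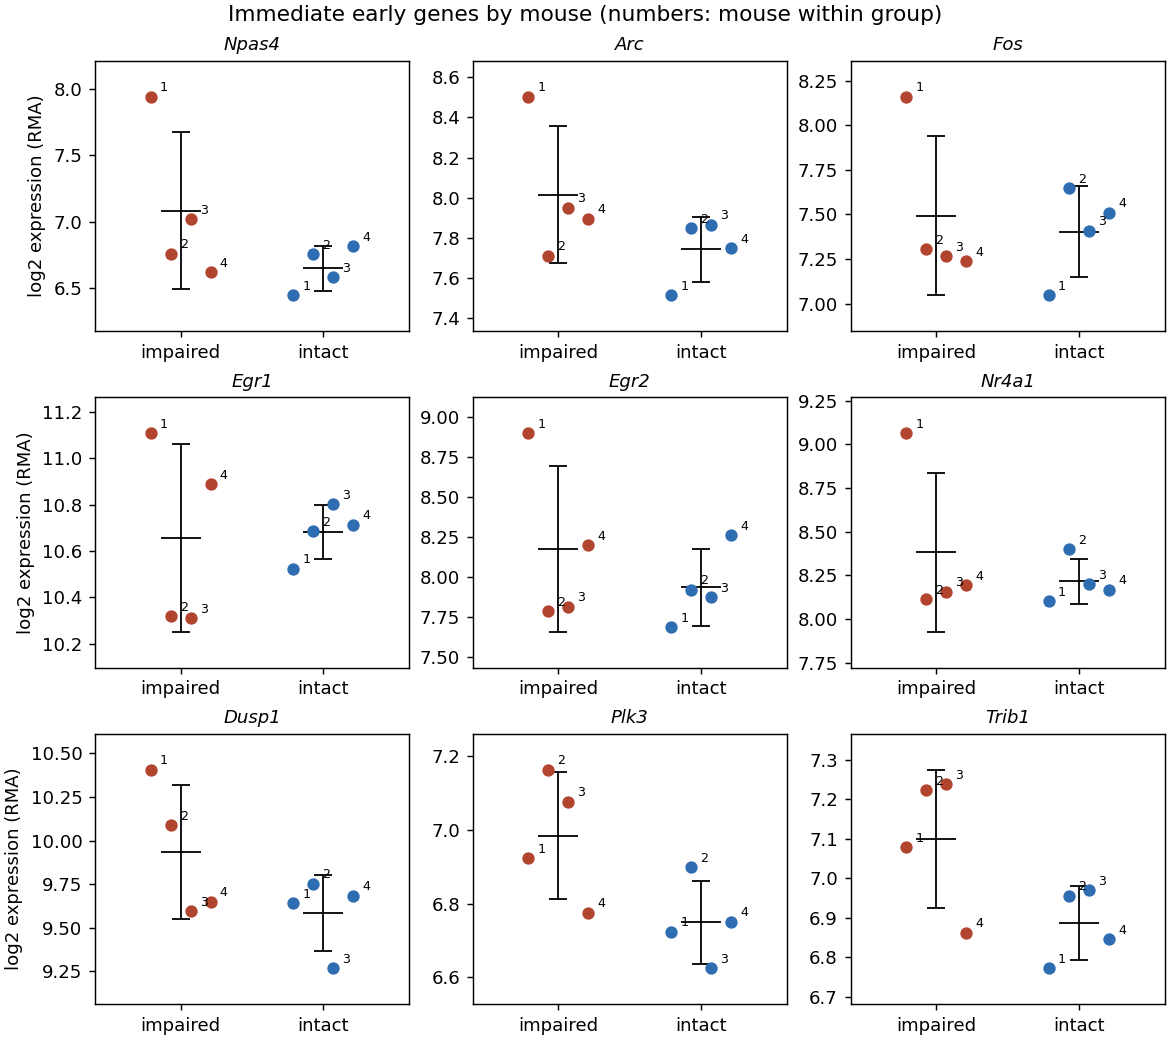
Log2 level (vertical axis) of 9 members in each mouse, impaired mice left of intact mice in every panel, with the mean and SD of each group. Impaired mouse 1 is the highest point for Npas4, Arc, Fos, Egr1, Egr2, Nr4a1 and Dusp1, and other impaired mice are the highest for Plk3 and Trib1.

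Proteins that act at the synapse or are secreted showed 3 members higher and 1 lower, with a median difference of 0.047. Arc, which removes AMPA receptors from synapses and whose RNA travels to active dendrites, was at 8.50, 7.71, 7.95 and 7.90 in impaired mice, against 7.51, 7.85, 7.87 and 7.75 in intact mice. Impaired mice 1, 3 and 4 were above every intact mouse and impaired mouse 2 was not. The difference of Arc was 0.27 ± 0.16 (SE, n = 4 each; limma adjusted p = 0.961), and 0.11 without impaired mouse 1. Nptx2, a secreted pentraxin that gathers AMPA receptors, and Inhba, a subunit of activin, had differences of 0.044 and 0.049. Without impaired mouse 1 these were -0.030 and 0.043. Homer1 had a difference of -0.017, or -0.076 without that mouse, and its probe set was not resolved into the short inducible and the long form of this postsynaptic scaffold.

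Among the kinases and phosphatases, 5 of 8 members were higher and 3 lower, and the median difference of 0.19 was the largest of the 6 groups. This group held 5 of the 8 members with the smallest p. Plk3, a Polo-like kinase of the stress response, was at 6.92, 7.16, 7.08 and 6.78 in impaired mice, against 6.72, 6.90, 6.62 and 6.75 in intact mice. Impaired mice 1, 2 and 3 were above every intact mouse, and impaired mouse 4 was inside the intact range. Its difference was 0.23 ± 0.10 (SE, n = 4 each; limma unadjusted p = 0.0433, adjusted p = 0.961), a ratio of 1.18, and was 0.26 without impaired mouse 1. Trib1, a pseudokinase that steers proteins to degradation, was at 7.08, 7.22, 7.24 and 6.86 in impaired mice, against 6.77, 6.96, 6.97 and 6.84 in intact mice. The same 3 impaired mice were above the intact range, and the difference of 0.22 ± 0.10 (SE, n = 4 each; limma adjusted p = 0.961) was 0.22 without impaired mouse 1 as well. Leaving out 1 mouse at a time gave 0.18 to 0.30 for Plk3 and 0.17 to 0.29 for Trib1. With scores of the choroid plexus and thalamus markers as covariates, the differences were 0.12 and 0.093, the lowest of all settings.

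The phosphatases of this group switch off MAP kinases. Dusp1, which is nuclear and also induced by stress and glucocorticoids, was at 10.41, 10.09, 9.59 and 9.65 in impaired mice, against 9.64, 9.75, 9.27 and 9.68 in intact mice. Impaired mice 1 and 2 were above the intact range, and the difference was 0.35 ± 0.18 (SE, n = 4 each; limma adjusted p = 0.961) with all mice and 0.19 without impaired mouse 1. Dusp5, a nuclear phosphatase, was at 8.55, 8.32, 8.21 and 8.14 in impaired mice, against 8.12, 8.13, 8.19 and 7.90 in intact mice, so that the groups overlapped through impaired mouse 4 and intact mouse 3. Its difference was 0.22 ± 0.11 (SE, n = 4 each; limma adjusted p = 0.961), and 0.14 without impaired mouse 1. Dusp4 and Dusp6 had differences of -0.011 and -0.0061, although Dusp6 had its highest value, 9.70, in impaired mouse 1. Without that mouse their differences were -0.044 and -0.15.

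Sik1, a kinase induced by CREB that in turn holds its coactivators back, was at 7.82, 7.40, 7.35 and 7.61 in impaired mice, against 7.44, 7.38, 7.35 and 7.32 in intact mice. Impaired mice 1 and 4 were above the intact range, and the difference was 0.17 ± 0.11 (SE, n = 4 each; limma adjusted p = 0.961), and 0.078 without impaired mouse 1. Plk2, which weakens synapses after long activity, was at 10.15, 10.18, 9.91 and 10.37 in impaired mice, against 10.47, 10.10, 10.55 and 9.97 in intact mice. Its groups overlapped, and its difference was -0.12 (95% interval -0.43 to 0.20).

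Growth and stress response genes made up the rest. All 4 tested were higher in impaired mice, by 0.14 for Btg2, which restrains cell division, 0.11 for Gadd45b, which takes part in DNA demethylation in neurons, 0.063 for Ier5 and 0.049 for Ier3. Each of these differences was smaller than its SE, and without impaired mouse 1 the difference was 0.019 for Btg2, -0.022 for Gadd45b, -0.018 for Ier5 and 0.0019 for Ier3. Ier2 averaged 5.36 ± 0.28 in impaired and 5.14 ± 0.17 in intact mice (SD, n = 4 each), with a mean over all mice below the floor.

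The clearest pattern was in 1 mouse, not between the groups. Impaired mouse 1 held the highest of the 8 values in 21 of the 35 members (60%), against 10.1% of all genes tested, and it was above the mean of the 8 mice in 30 members, against 44.3% of all genes. It held the lowest value of 0 members. The median member deviated from its own mean over the mice by 0.27 in impaired mouse 1, and by -0.13 to 0.0081 in the other 7. These counts describe the arrays of single mice and carry no test.

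**Figure D3:**
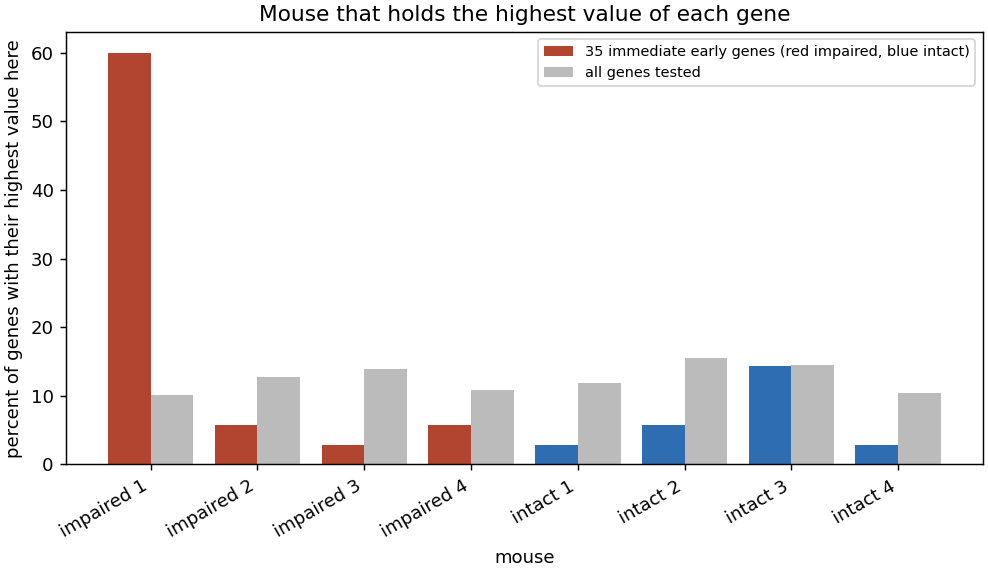
Percent of the 35 members and of all 14628 genes tested (vertical axis) whose highest of 8 values lies in each mouse, impaired mice left of intact mice. Impaired mouse 1 holds 60% of the members and 10.1% of all genes, and no other mouse holds more than 14.3% of the members.

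The gap between impaired mouse 1 and the next mouse was largest for Npas4, at 0.93 on the log2 scale, a ratio of 1.90. Nr4a1 followed with a gap of 0.66, Egr2 with 0.64, Arc with 0.55 and Fos with 0.51. Over all 14628 genes, the gaps of Npas4 and Nr4a1 were the largest and the next largest of this array. A gap over 0.5, a limit chosen after the values were seen, was found for 16 genes of this array (0.109%), 5 of them members (14.3% of the 35). In each of the other 7 arrays, between 2 and 18 genes stood above the other mice by that much, and 0 of those genes were members. In the 21 members that were highest in impaired mouse 1, the gap ran between 0.0088 and 0.93 with a median of 0.23.

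The 14 other members had their highest value elsewhere. Intact mouse 3 held 5 of them, namely Plk2, Nr4a2, Nr4a3, Homer1 and Inhba. Impaired mouse 2 held Plk3 and Klf6, impaired mouse 3 held Trib1, and impaired mouse 4 held Jund and Dusp4. Fosl1 was highest in intact mouse 1, Atf3 and Klf4 in intact mouse 2, and Ier3 in intact mouse 4. At the low end, intact mouse 4 held the lowest value of 11 members, intact mouse 1 of 10 and impaired mouse 3 of 8. The median deviation of the CA1 markers was 0.31 in intact mouse 3 and -0.40 in intact mouse 4. The part of CA1 content in the members' values was not tested. Members varied more over the mice than most genes, with a median range of 0.60, against 0.45 over all genes tested. A range above 0.80, which only the top 10% of all genes exceed, was found for 8 of the 35. Of these, Npas4, Egr2, Dusp1, Fos, Arc and Nr4a1 had their highest value in impaired mouse 1, and Nr4a2 and Ier3 did not. Ranges without that mouse were not computed.

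**Figure D4:**
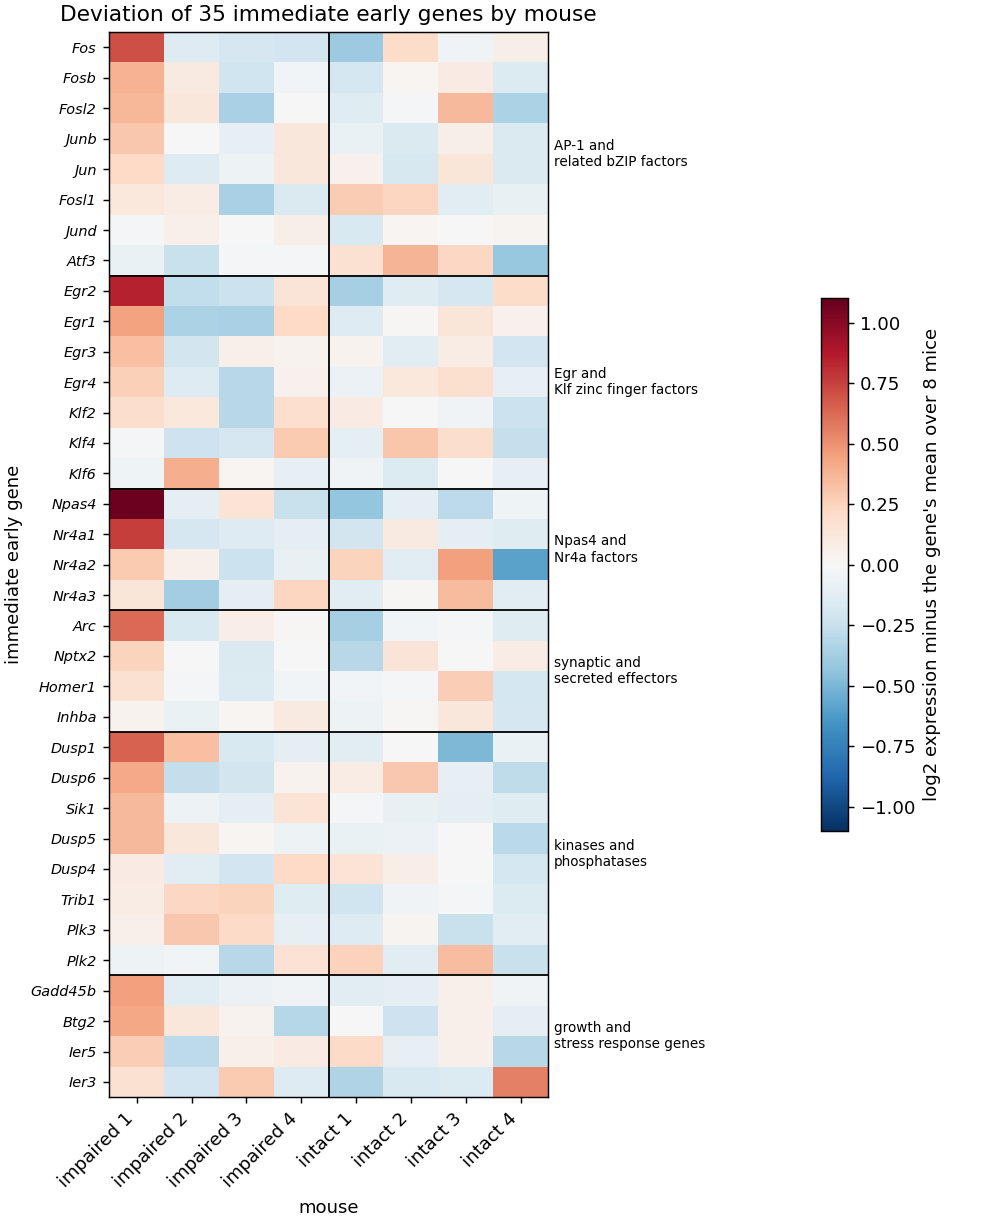
Deviation of each member (a line of cells per gene, grouped by role) from its own mean over the 8 mice, on the log2 scale, with impaired mice left of intact mice and red for values above the mean. The column of impaired mouse 1 is red for 30 of the 35 members tested, most deeply for Npas4 at 1.08.

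The pattern in impaired mouse 1 ran through all 6 roles. It was highest in 5 of 8 AP-1 genes, 5 of 7 Egr and Klf genes, 2 of 4 of the Npas4 and Nr4a genes, 2 of 4 synaptic or secreted effectors, 4 of 8 kinases and phosphatases, and 3 of 4 growth and stress response genes. By promoter, it was highest in 11 of the 18 tested members with TGACG in a window and in 5 of the 9 with a window but no TGACG. In this mouse the median deviation of the 9 lists of cell type markers lay between -0.21, for thalamus, and 0.11, for choroid plexus, against 0.27 for the members. Excitatory neuron markers deviated by -0.089 in the median, dentate granule markers by -0.13 and microglial markers by -0.13. Of the bacterial hybridization controls, BioB-5 was at 11.2 in this array, against 9.55 to 9.90 in the others, while the other BioB, BioC and BioDn controls lay within the range of the other arrays. The part of that control in the result was not tested.

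Genes of the same response outside the 37 were counted in lists of known response genes. These lists, and those of the next paragraphs, were chosen with earlier results of these data known. Their counts and shares therefore describe the lists and are no test of them. Of 23 other rapid response genes tested, 17 were higher and 6 lower in impaired mice, with a median difference of 0.10, and 0 passed the test. At an unadjusted limma p under 0.05, 4 were higher, against 2.17% of all genes, and 0 lower, against 2.52%. Zfp36, whose protein speeds the decay of cytokine RNAs, was at 7.01, 6.96, 7.07 and 6.75 in impaired mice, against 6.22, 6.32, 6.42 and 6.64 in intact mice, with no overlap (difference 0.55 ± 0.11, SE, n = 4 each; limma adjusted p = 0.961). Per1, a clock gene that CREB also drives, was the other gene of this list without overlap, with a difference of 0.26, where 1.12% of all genes had every impaired value above every intact value. Ccn1 and Gadd45g had differences of 0.28 and 0.25. Of the 23, 5 were highest in impaired mouse 1, against 10.1% of all genes, and the median deviation of the 23 there was 0.047. Without that mouse the list's median difference was 0.11.

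Late response genes, which in general follow the first wave, had 5 members higher and 5 lower, and a median difference of -0.0090. Bdnf, the neurotrophin that activity induces, was at 8.62, 8.16, 8.12 and 8.29 in impaired mice, against 8.15, 7.94, 8.15 and 8.18 in intact mice. Vgf, a secreted neuropeptide precursor, was at 10.10, 9.60, 9.50 and 9.62 in impaired mice, against 9.36, 9.63, 9.64 and 9.51 in intact mice. Both were highest in impaired mouse 1, as were 10.1% of all genes. The other 8 genes of the list were not, and of these Acan and Scg2 had differences of -0.11 and -0.13. The difference of Bdnf was 0.20 (limma adjusted p = 0.961) and that of Vgf 0.17, and without impaired mouse 1 they were 0.093 and 0.035. Leaving out 1 mouse at a time gave the list medians of -0.057, without impaired mouse 2, to 0.018, without intact mouse 2.

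The factors and kinases upstream of the response leaned the other way, with 6 of 22 higher and 16 lower in impaired mice and a median difference of -0.045. None passed the test. Map2k1, a kinase of the MAP kinase cascade, had every impaired value below every intact value, at 9.54 to 9.75 in impaired and 9.77 to 9.94 in intact mice, a difference of -0.18 (limma adjusted p = 0.961), where 1.46% of all genes had every impaired value below. Elk3, Elk4 and Srf, which act at the CArG box, had differences of -0.30, 0.15 and 0.20, and that of Elk3 was -0.13 without impaired mouse 1. The list's median was -0.024 without impaired mouse 1, -0.022 without intact mouse 3 and -0.076 without intact mouse 4. Impaired mouse 1 was highest in 0 of the 22, against 10.1% of all genes.

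Stress and hormone genes were set beside the members because many immediate early genes answer to stress. Of 7 stress chaperones, 4 were higher and 3 lower, with a median difference of 0.034. Impaired mouse 1 was highest in 2 of them, Hspa1b and Dnajb1, against 10.1% of all genes. The median was -0.056 without impaired mouse 1 and 0.12 without impaired mouse 3. Hspa5, Hspa1a and Bag3 had differences of -0.24, 0.062 and 0.048. Of 12 genes that glucocorticoids induce, 11 were higher and 1 lower, with a median difference of 0.20 and no call. That median was 0.11 without impaired mouse 2 and 0.29 without impaired mouse 1. Sgk1, a kinase, had a difference of 0.45 ± 0.17 (SE, n = 4 each; limma adjusted p = 0.961), and Pdk4, Nfkbia and Plin4 had 0.31, 0.33 and 0.32. In impaired mouse 1 these genes lay low, with a median deviation of -0.15, and they were high in impaired mouse 2, at 0.33. Impaired mouse 1 was highest in 0 of the 12, against 10.1% of all genes.

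**Figure D5:**
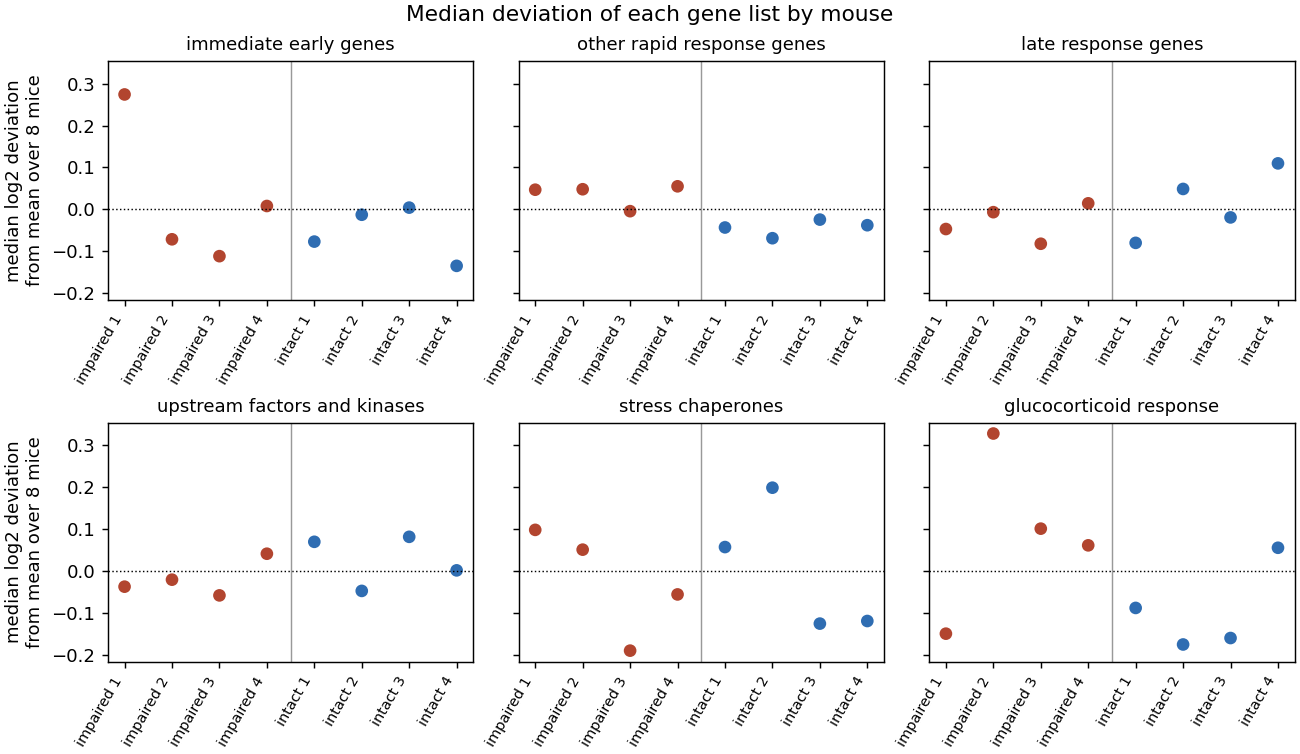
Median deviation of the genes of 6 lists from their own means over the 8 mice (vertical axis, log2 scale), impaired mice left of intact mice in each panel. The immediate early genes peak in impaired mouse 1 at 0.27, and the glucocorticoid response genes peak in impaired mouse 2 at 0.33.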

How the data were processed

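Hippocampal RNA of 8 mice, 4 impaired and 4 intact, was measured on 1-colour Affymetrix arrays, 1 array per mouse. The WT Pico kit turned 1 ng of RNA into biotin-labelled cDNA, per the labels' protocols. The authors deposited log2 values, made with RMA per the submitters' processing notes, which corrects background, normalizes by quantiles and summarizes probes, and which draws differences of dim genes towards 0. A software version is not given in the sources used here, nor is a genome build. Amplification from so little RNA adds noise that 1 array per mouse cannot separate from differences between mice, and the number of arrays limits precision.

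Genes were named from the platform table (19505 genes, 1 symbol per probe set used), with the probe set of the highest mean kept. The dimmest 25% by mean over all arrays were left out (floor 5.33), leaving 14628. Impaired minus intact was fitted with limma 3.58.1 in R 4.3.3, with Benjamini-Hochberg adjustment over all genes and a threshold of 0.05, after tests on simulated data. The changes simulated were larger than any member difference, so those tests cannot say whether differences of this size would be called. As a gauge of background, 15 members had means above the 95th percentile of the negative control probe sets (7.92) and 3, Klf4, Maff and Ier2, had means below their 75th (6.30). The other 19 lay between these percentiles. Among them were Fos and, of the 8 members with the smallest p, Plk3, Trib1, Npas4, Arc, Junb and Sik1.

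Members, roles, lists and alternatives were chosen with earlier results of these data known. Values of every array are given for the 8 tested members with the smallest p, the 4 with the highest mean, and Fos, Arc, Egr1 and Npas4, and up to 4 genes of smallest p are named per comparison list. Listed genes that were not matched by symbol are not analysed here. Promoters came from RefSeq. The labels do not pair mice across groups by replicate number. Deviations of mice with the same number correlated at -0.10 to 0.03, which cannot exclude a pairing. Alternatives left out each mouse in turn or changed the prior, the floor, the scaling, array weights, probe set choice, border tissue covariates or the replicate block.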

Additional observations from a re-analysis of the deposited data

Results flagged for a closer look

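Within each group of 4 mice, the highest or lowest value of each of the 37 members, and of the members' median deviation, was checked for lying far from the other 3 by Dixon's ratio. Of 76 groups of values checked, 5 did, where chance gives about 1 in 20 (5%). The members' median deviation was not among these 5, and neither were Npas4, Arc and Egr2. In impaired mice, Fos was 8.16 in mouse 1, with the next mouse at 7.30. Nr4a1 in impaired mice was 9.06 in mouse 1, with the next at 8.19. Gadd45b in impaired mice was 7.83 in mouse 1, with the next at 7.35. Klf2 in impaired mice was 6.34 in mouse 3, with the next at 6.76. Jund in intact mice was 9.78 in mouse 1, with the next at 9.95. The causes were not tested.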

How the results depend on the processing

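No member passed the threshold under any of the alternatives run, with limma adjusted p of 0.698 to 1.00 over all members and settings. One gene of the whole array passed when the prior was robust and followed an intensity trend, and 0 under the other alternatives. Without impaired mouse 1 the members' median difference was -0.0014, the lowest of all settings, and with the choroid plexus and thalamus scores as covariates it was 0.19, the highest, with 32 of 35 members higher, against 46.5% of all genes, and 5 at an unadjusted p under 0.05, against 4.42% of all genes. Leaving out 1 mouse at a time gave medians of -0.0014 to 0.13, 0 to 6 members higher at an unadjusted p under 0.05 (6 without impaired mouse 4) and 0 to 3 members without overlap between groups (3 without impaired mouse 4, namely Dusp5, Plk3 and Trib1, all above, against 2.91% of all genes). Counted in either direction, 936 genes of the whole array (6.40%) were at that unadjusted level without impaired mouse 4. The count was 685 (4.68%) with all mice and 486 (3.32%) without intact mouse 1. The replicate block left the median at 0.076 and the calls at 0. With it, 3 of the 35 members were at an unadjusted p under 0.05, against 4.33% of all genes (633), in either direction. The labels do not say that the numbers shared across groups pair the mice. Leaving out mice for the tissue marker lists was chosen after seeing the data.

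Several differences changed sign. With the covariates, Egr1 was 0.20, Dusp6 0.19, Dusp4 0.17, Egr4 0.075, Plk2 0.074, Homer1 0.072, Nr4a3 0.067, Klf4 0.037 and Ier3 -0.12. Plk3 and Trib1 kept their sign with the covariates but fell to 0.12 and 0.093. Dusp6 was 0.0010 after centring and 0.012 after quantile normalization, where Egr1 was 0.0094 and Homer1 0.0076, and Homer1 was 0.0013 with array weights. Leaving out 1 mouse at a time also turned the sign of Dusp4 (-0.087 to 0.059), Dusp6 (-0.15 to 0.093), Egr1 (-0.18 to 0.091), Egr2 (-0.0014 to 0.37), Egr4 (-0.17 to 0.020), Fos (-0.13 to 0.17), Fosl2 (-0.040 to 0.20), Gadd45b (-0.022 to 0.17), Homer1 (-0.085 to 0.071), Ier3 (-0.054 to 0.24), Ier5 (-0.028 to 0.17), Inhba (-0.0035 to 0.10), Klf4 (-0.18 to 0.021), Nptx2 (-0.052 to 0.10), Nr4a1 (-0.062 to 0.25), Nr4a2 (-0.18 to 0.16) and Nr4a3 (-0.15 to 0.059). The causes were not tested.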
